A study of Mus musculus with 20 samples.

Results

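The transcripts of 8 genes that encode parts of the synaptonemal complex, Sycp1, Sycp2, Sycp3, Sycp2l, Syce1, Syce2, Syce3 and Tex12, were followed in whole mouse ovaries around birth. The genes were chosen by mouse symbol, and all 8 were found among the 49585 genes that were counted. The knockout ovaries lacked Figla, a basic helix-loop-helix transcription factor of oocytes, or Lhx8, a LIM homeodomain transcription factor of oocytes. Figla-/- ovaries at embryonic day 18.5 (E18.5) gave 4 libraries, against 4 from Figla+/- controls. Figla-/- ovaries at postnatal day 0 (P0) gave 3 libraries, against 3 from Figla+/- controls, and Lhx8-/- ovaries at P0 gave 3, against 3 from controls that the genotype label calls Lhx8+/- and the library name calls wild type. All mice were B6D2F1, and the labels do not say how many animals a library holds or which part of either gene is deleted.

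The synaptonemal complex is the protein ladder that joins paired homologous chromosomes in meiotic prophase. Its sides are the chromosome axes, which hold SYCP2 and SYCP3. SYCP1 forms the rungs, and SYCE1, SYCE2, SYCE3 and TEX12 form the central element in which the rungs meet. In female mice the complex forms before birth, and oocytes then arrest late in prophase as the complex comes apart and follicles form. SYCP2L is a paralog of SYCP2 found in oocytes, and in mice it has been seen on the synaptonemal complex and later at centromeres of arrested oocytes.

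Values are counts of reads per gene, given below as CPM, counts scaled to the size of each library. The Figla libraries held 5583392 to 13408022 counts and cover whole transcripts, while the Lhx8 libraries held 8297204 to 9978350 counts and read the 3′ ends, so levels were not compared between the 2 sets. At E18.5, libraries 1 and 2 of each group were near-identical and were summed, so that every group had 3 samples. The title and the library name of a library disagreed on genotype for 6 of 14 Figla and 6 of 6 Lhx8 libraries, and the library name was used. On total counts Figla stood at 0.722 to 1.56 CPM in E18.5 knockouts, against 3.94 to 27.2 in controls, and at 0.175 to 0.647 CPM in P0 knockouts, against 32.5 to 39.5 in controls. Lhx8 stood at 18.1 to 31.0 CPM in the libraries named as Lhx8 knockouts, against 89.4 to 101.0 in their controls. The direction of each Lhx8 result rests on the library names, since the titles name the reverse for all 6 libraries. The lowest Figla value among controls came from E18.5 control replicate 3, which is the shallowest library, has a title that names a knockout, and stood at 6.45 CPM of Lhx8, against 6.52 in E18.5 knockout replicate 3. Every germ cell marker examined had reads in every group, and so did every pregranulosa marker, although Foxl2 had 9 reads in all in Lhx8 knockouts and 2 in their controls, the second under the floor of 3 counts.

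Per length, the rung gene Sycp1 and the axis gene Sycp3 led the set. In P0 controls of the Figla set, Sycp1 had the highest level, at 245 ± 55.1 TPM, counts scaled to gene length and library size (SD, n = 3), followed by Sycp3 at 196 ± 42.9, Syce1 at 112 ± 23.2 and Syce2 at 85.1 ± 10.9. Syce3 stood at 54.2 ± 18.2 TPM, Sycp2l at 42.4 ± 15.7, Sycp2 at 37.5 ± 12.2 and Tex12 at 35.2 ± 6.91. Sycp3 and Syce1 were the only neighbours in this order whose ranges did not overlap. In P0 Figla knockouts the first place was again held by Sycp1, at 193 ± 19.0 TPM, and Sycp2l came last at 0.177 ± 0.0690. Its range lay apart from that of Tex12, the next lowest at 21.6 ± 2.19 TPM.

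The Sycp3 level is uncertain. Of its 1264 exonic bases, 660 (52.2%) are shared with Chpt1, a phospholipid synthesis gene on the other strand, between chr10:88469546-88473236. They include all of the last 300 exonic bases of Sycp3, and reads there could not be given to either gene because counting ignored strand. Divided by the bases that are not shared, Sycp3 in P0 controls stood at 409.5 TPM, above Sycp1. In P0 Figla knockouts it stood at 227.5 TPM on the same measure, also above Sycp1. Chpt1 itself did not pass the test in any knockout comparison, with log2 fold changes of -0.05 at E18.5 (adjusted p = 1), 0.16 at P0 (adjusted p = 0.44) and 0.00 in the Lhx8 set (adjusted p = 0.987). None of the other 7 genes shares exonic bases with a neighbour.

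**Figure D1:**
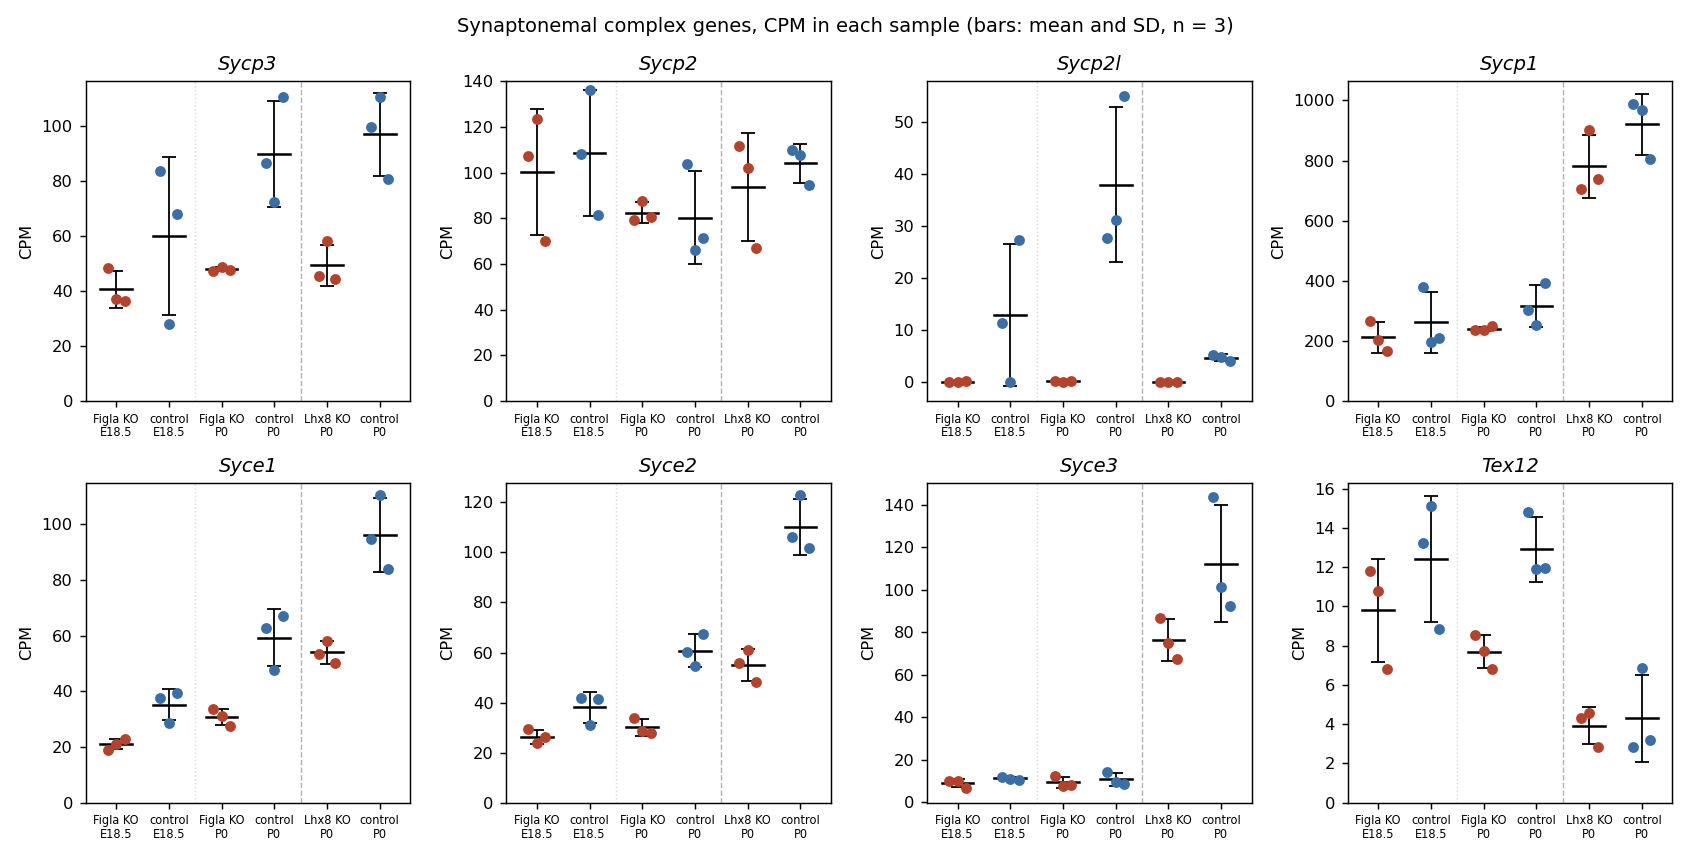
CPM of the 8 genes in each sample (points), with the mean and SD of each group of 3 (black); the dashed line parts the whole-transcript Figla libraries from the 3′-end Lhx8 libraries. Sycp2l is near 0 in every knockout sample and in E18.5 control replicate 3, while the Sycp2 points of knockouts and controls overlap at both ages and in both sets.

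The promoters of 5 members are shown because Sycp2l, Sycp3, Syce1 and Syce2 were lower in both knockouts at P0 while Sycp2, the paralog of Sycp2l, did not pass the test. Each is the 250 bases before the start of a RefSeq transcript on GRCm38.p6, read 5′ to 3′ on the strand of the gene. Capitals mark CANNTG, the E-box that basic helix-loop-helix factors bind. The windows shown, other than that of Syce1, run past the start of the GENCODE M12 gene, which lies upstream of the RefSeq start used.
Sycp2l, chr13:41114169-41114418, + strand: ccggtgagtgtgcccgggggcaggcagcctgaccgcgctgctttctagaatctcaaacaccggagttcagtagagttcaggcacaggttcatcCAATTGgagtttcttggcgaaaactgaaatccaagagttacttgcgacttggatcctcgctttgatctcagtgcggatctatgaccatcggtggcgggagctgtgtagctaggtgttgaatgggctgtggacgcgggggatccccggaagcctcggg
Sycp2, chr2:178407659-178407908, - strand: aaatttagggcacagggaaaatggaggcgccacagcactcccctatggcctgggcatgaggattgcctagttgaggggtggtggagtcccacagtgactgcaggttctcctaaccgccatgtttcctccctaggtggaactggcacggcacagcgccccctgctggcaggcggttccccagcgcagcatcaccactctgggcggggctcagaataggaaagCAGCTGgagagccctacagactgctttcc
Sycp3, chr10:88459337-88459586, + strand: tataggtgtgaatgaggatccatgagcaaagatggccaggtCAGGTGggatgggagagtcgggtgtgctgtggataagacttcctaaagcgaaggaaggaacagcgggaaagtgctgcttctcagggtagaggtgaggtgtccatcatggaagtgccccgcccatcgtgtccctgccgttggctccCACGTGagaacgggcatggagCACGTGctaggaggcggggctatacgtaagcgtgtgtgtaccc
Syce1, chr7:140787855-140788104, - strand: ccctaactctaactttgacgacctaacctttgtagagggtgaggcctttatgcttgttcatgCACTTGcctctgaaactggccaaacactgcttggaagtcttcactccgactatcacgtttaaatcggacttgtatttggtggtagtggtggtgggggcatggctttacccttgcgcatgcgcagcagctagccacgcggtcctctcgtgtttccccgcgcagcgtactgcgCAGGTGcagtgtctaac
Syce2, downstream start, chr8:84872008-84872257, + strand: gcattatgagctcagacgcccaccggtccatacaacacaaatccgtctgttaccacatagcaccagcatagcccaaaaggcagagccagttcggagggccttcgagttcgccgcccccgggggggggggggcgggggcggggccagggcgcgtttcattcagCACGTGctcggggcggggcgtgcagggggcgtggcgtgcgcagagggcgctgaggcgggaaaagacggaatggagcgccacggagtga

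Promoters were found for all 8 genes, 10 in all, since Syce2 and Syce3 have more than 1 start. CANNTG occurred in 9 of the 10, against 66.2% of 32851 RefSeq promoters of the same length. Sycp2l held a single match, CAATTG, whose first base lies 157 bases before the start (-157), and Sycp2 held CAGCTG at -29. Syce1 held CACTTG at -188 and CAGGTG at -17, and Sycp3 held CAGGTG at -209 and CACGTG at -64 and -43. The upstream Syce2 start, whose window is not shown and ends just before the GENCODE M12 gene, held CAGGTG at -129. The downstream Syce2 start held CACGTG at -88, which lies inside the GENCODE M12 gene. The form CACGTG, looked at after the other results were known, occurred in 4 of 10 promoters, against 6.02% of all. They were those of Sycp1, Sycp3, Tex12 and the downstream Syce2 start. TAATTA, a core that LIM homeodomain factors bind, occurred in 0 of 10, against 4.84% of all. Each of these motifs reads the same on both strands, and a CACGTG is also a CANNTG. A match is a string of letters and does not show binding, and the absence of one covers these windows only.

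At P0, 5 of the 8 genes were lower in Figla knockouts than in controls and none was higher (edgeR's quasi-likelihood test, adjusted p under 0.05). Over all 17321 genes tested, 10.9% were lower and 5.12% were higher. All 8 members passed the filter on low counts, Sycp2l only through its controls, and a gene kept that way can hardly be called higher. The median log2 fold change of the 8 was -0.80, beside 0.02 for all genes tested. Every knockout sample lay below every control for 6 of the 8, as for 21.2% of all genes.

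Sycp2l, which lies at chr13:41114307-41171684, showed the largest difference of the 8. It stood at 0.183, 0.0799 and 0.201 CPM in P0 Figla knockouts, from 2, 1 and 2 reads, against 27.7, 31.2 and 55.1 CPM in controls, from 325, 325 and 677 reads. All 3 knockouts were near 0, and the groups lay far apart. The scaled count was 257 times higher in controls (95% counting interval 110 to 794), and edgeR's log2 fold change was -7.85 (adjusted p = 1.47e-06, SE 0.42). Its paralog Sycp2, at chr2:178345293-178407685, stood at 79.0, 87.6 and 80.5 CPM in knockouts, against 104, 66.1 and 71.2 in controls. The groups overlapped, and the log2 fold change was 0.06 (adjusted p = 0.856, SE 0.17) with a 95% interval of -0.31 to 0.43. Its sign turned without control replicate 2 (-0.06), without control replicate 3 (-0.02), and with only the libraries whose labels agree (-0.01).

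Of the other axis gene, Sycp3, at chr10:88459569-88473236, the levels were 47.3, 48.6 and 47.8 CPM in knockouts, against 86.6, 72.3 and 110.5 in controls. The knockouts were nearly equal to each other, and the groups did not overlap. On the log2 scale Sycp3 fell by 0.88 (adjusted p = 0.00206, SE 0.14). That call did not hold when all Figla samples were fitted in 1 model (log2 fold change -0.88, adjusted p = 0.0869). The rung gene Sycp1, at chr3:102818499-102936100, stood at 234, 235 and 248 CPM in knockouts, against 301, 254 and 393 in controls. Every knockout sample lay below every control, but the log2 fold change of -0.38 (adjusted p = 0.087, SE 0.14) did not pass. It passed without control replicate 2 (adjusted p = 0.022), which had the lowest Sycp1 level of the controls, and with no filter on low counts (adjusted p = 0.0157).

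Of the central element genes, Syce2, Syce1 and Tex12 passed and Syce3 did not, and they were not tested against each other. Syce2, at chr8:84872111-84888221, stood at 33.9, 28.4 and 27.9 CPM in knockouts, against 60.3, 54.5 and 67.4 in controls, and fell by 0.99 in log2 terms (adjusted p = 0.000533, SE 0.13). Syce1, at chr7:140777229-140787852, stood at 33.5, 31.1 and 27.6 CPM in knockouts, against 62.9, 47.7 and 67.2 in controls, and fell by 0.92 (adjusted p = 0.00186, SE 0.15). In both genes the highest knockout lay well under the lowest control. Tex12, at chr9:50556819-50561325, stood at 8.53, 7.75 and 6.82 CPM in knockouts, against 14.8, 11.9 and 11.97 in controls, and fell by 0.72 (adjusted p = 0.0318, SE 0.20). The Tex12 groups did not overlap, but the call was lost in 4 of the 6 fits that leave out a sample: the adjusted p was 0.0812 without control replicate 1, 0.0513, 0.0946 and 0.131 without knockout replicates 1, 2 and 3, and 0.099 in 1 model of all Figla samples. Syce3, at chr15:89390174-89410503, stood at 12.3, 7.59 and 8.13 CPM in knockouts, against 14.0, 9.60 and 8.63 in controls. Its groups overlapped, and the log2 fold change of -0.19 (adjusted p = 0.681, SE 0.26) had a 95% interval of -0.77 to 0.40. It turned positive, at 0.06, without control replicate 1.

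**Figure D2:**
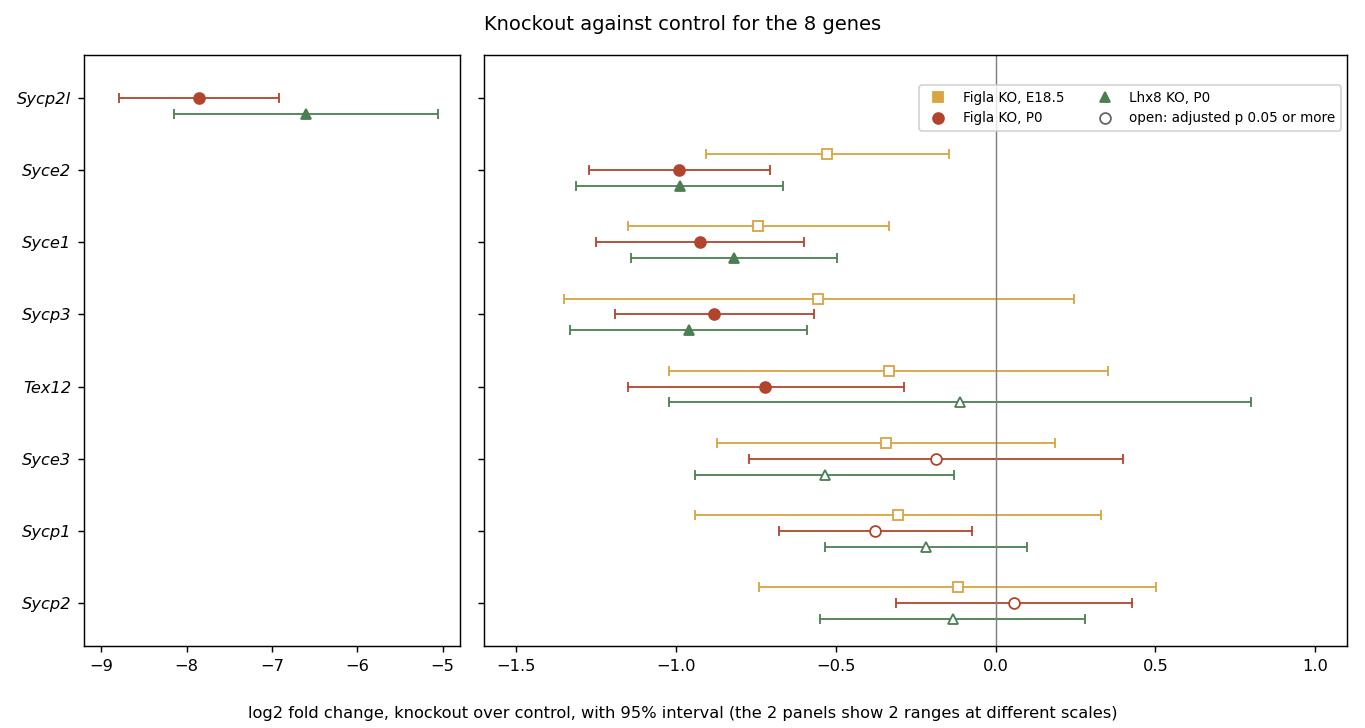
Log2 fold change of knockout over control for each gene, with its 95% interval, in the 3 knockout comparisons; filled symbols have an adjusted p under 0.05. The left panel holds Sycp2l, at -7.85 in Figla and -6.60 in Lhx8 knockouts at P0. The right panel, which spreads a narrower range over more width, holds the other 7 genes. Of these, Syce2, Syce1 and Sycp3 lie near -1 at P0 in both knockouts.

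At E18.5, the same genes were examined before birth. None of the 7 members that passed the filter was called by edgeR, and 2 of them, Syce1 and Syce2, had an unadjusted p under 0.05. DESeq2 also called 0 of the 7. Few genes of any kind were called: edgeR found 0.0062% of 16131 genes lower, which is 1 gene, and 0.0% higher, with 607 at an unadjusted p under 0.05, while DESeq2 called 62 lower and 16 higher. The 7 log2 fold changes were all negative, with a median of -0.34 beside 0.01 for all genes tested. Syce1 stood at 19.1, 21.2 and 22.9 CPM in knockouts, against 37.6, 28.7 and 39.5 in controls, with a log2 fold change of -0.74 (adjusted p = 0.824, SE 0.18). Syce2 stood at 29.3, 23.7 and 26.1 CPM in knockouts, against 41.6, 31.1 and 41.4 in controls, with a log2 fold change of -0.53 (adjusted p = 1, SE 0.16). In both genes control replicate 3 was the lowest control and still lay above every knockout. Every knockout lay below every control for 3 of the 8 genes, Syce1, Syce2 and Syce3, as for 3.83% of all genes tested.

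Sycp3 at E18.5 stood at 48.4, 37.0 and 36.5 CPM in knockouts, against 83.7, 28.1 and 67.9 in controls, and the groups overlapped because control replicate 3 was the lowest sample of all. Its log2 fold change was -0.55 (adjusted p = 1, SE 0.34). Sycp1 had a log2 fold change of -0.30 (SE 0.27), Tex12 of -0.33 (SE 0.30), Syce3 of -0.34 (SE 0.23) and Sycp2 of -0.12 (SE 0.27), each with an adjusted p of 1. With the libraries whose labels agree alone, the E18.5 calls numbered 3 members: Sycp2l, Sycp1 at -0.99 (adjusted p = 0.00945) and Sycp3 at -1.13 (adjusted p = 0.00536). That setting leaves 1 control sample, the summed libraries 1 and 2, whose spread is assumed to equal that of the 2 knockout samples.

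Sycp2l did not pass the filter at E18.5. It had 0, 0 and 1 reads in the 3 knockout samples, against 200, 0 and 226 in the 3 control samples, the sample with 0 being control replicate 3. In the other control samples it stood at 11.5 and 27.4 CPM, and a count of 0 in control replicate 3 allows a level of up to 0.498 CPM. Summed over samples, the scaled count was 456 times higher in controls (95% counting interval 81.5 to 18100), and 563 times higher without control replicate 3 (101 to 22300). The ratio was 187 (33.3 to 7390) without knockout replicate 1-2 and 290 (51.4 to 11500) without control replicate 4. Without knockout replicate 4, which held the only read, controls were at least 119-fold higher, with 3 counts over the knockouts as the floor. With no filter, edgeR's log2 fold change was -8.26 (adjusted p = 0.00036, SE 1.21), and without control replicate 3 it was -8.89 (adjusted p = 0.0131, SE 0.85). The adjusted p was 0.0823 when both samples numbered 3 were left out and 0.0514 in 1 model of all Figla samples. It ran from 0.629 to 1 when a knockout sample was left out.

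In Lhx8 knockouts at P0, 4 of the 8 genes were lower than in controls and none was higher, beside 7.29% of 15274 genes lower and 3.06% higher. All 8 passed the filter, Sycp2l again only through its controls. The median log2 fold change of the 8 was -0.68, beside 0.05 for all genes tested. For 5 of the 8, every knockout lay below every control, as for 18.9% of all genes.

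Sycp2l had 1, 0 and 0 reads in Lhx8 knockouts (0.0962, 0 and 0 CPM), against 50, 46 and 36 reads in controls (5.28, 4.85 and 4.07 CPM). A count of 0 allows up to 0.305 and 0.369 CPM in these knockout libraries, far below the lowest control. The scaled count was 135 times higher in controls (95% counting interval 23.7 to 5360), and the log2 fold change was -6.60 (adjusted p = 0.000312, SE 0.70). Without knockout replicate 1, which held the only read, controls were at least 28.4-fold higher, taking 3 counts over the knockouts as the floor. Sycp2 stood at 112, 102 and 66.8 CPM in Lhx8 knockouts, against 110.0, 107.5 and 94.5 in controls. Its groups overlapped, with a log2 fold change of -0.13 (adjusted p = 0.684, SE 0.19) and a 95% interval of -0.55 to 0.28. The sign was positive, at 0.06, without knockout replicate 3.

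Sycp3 stood at 45.5, 58.0 and 44.3 CPM in Lhx8 knockouts, against 99.8, 110.5 and 80.6 in controls, and fell by 0.96 in log2 terms (adjusted p = 0.00543, SE 0.17). These libraries read 3′ ends, but reads in the last 300 exonic bases of Sycp3, shared with Chpt1, were not assigned. The Sycp3 counts here thus come from other parts of the gene, and where those reads lie was not tested. Syce2 stood at 55.9, 61.0 and 48.2 CPM in knockouts, against 106, 123 and 102 in controls, and fell by 0.98 (adjusted p = 0.00216, SE 0.14). Syce1 stood at 53.4, 58.2 and 50.2 CPM in knockouts, against 94.7, 110.4 and 84.0 in controls, and fell by 0.82 (adjusted p = 0.00633, SE 0.15). None of these 3 genes had a knockout sample as high as any control. Leaving out each sample in turn kept the number of calls at 4.

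The remaining 3 genes did not pass in the Lhx8 set. Syce3 stood at 86.8, 75.1 and 67.2 CPM in knockouts, against 143, 101 and 92.1 in controls, with a log2 fold change of -0.53 (adjusted p = 0.0898, SE 0.18). Its groups did not overlap, and it passed only when no filter was used (adjusted p = 0.0146). Sycp1 stood at 704, 901 and 740 CPM in knockouts, against 987, 969 and 804 in controls, with a log2 fold change of -0.22 (adjusted p = 0.347, SE 0.14). Tex12 was the scarcest after Sycp2l, with 45, 45 and 23 reads in knockouts, against 27, 65 and 28 in controls. Its log2 fold change of -0.11 (adjusted p = 0.886, SE 0.41) had a 95% interval of -1.02 to 0.80, which holds the -0.72 seen in Figla knockouts. The 2 knockouts were not tested against each other.

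The ratio of Sycp2l to Sycp2 within a sample does not depend on how libraries are scaled. On a log2 scale, with 0.5 added to each count, it stood at -8.43, -9.52 and -8.33 in P0 Figla knockouts, against -1.90, -1.08 and -0.37 in controls. The means differed by -7.64 (p = 0.1, exact permutation test, two-sided), and 0.1 is the smallest p that 3 against 3 samples allow. In Lhx8 knockouts it stood at -9.60, -11.0 and -10.1, against -4.37, -4.46 and -4.52 in controls, a difference of -5.77 (p = 0.1, exact permutation test). Before birth, at E18.5, it stood at -12.1, -10.7 and -8.42 in knockouts, against -3.23, -10.7 and -1.57 in controls, a difference of -5.22 (p = 0.3, exact permutation test). With a sample left out this ran from -7.98, without control replicate 3, to -3.43, without control replicate 4. Most of these knockout values are set by the number added to 0 or 1 reads. Another 2 ratios were chosen after their values were seen and are given without a test. That of Sycp3 to Sycp2 was -0.74, -0.85 and -0.75 in P0 Figla knockouts, against -0.26, 0.13 and 0.63 in controls, and that of Syce2 to Sycp1 was -2.79, -3.04 and -3.15, against -2.32, -2.22 and -2.54. Neither pair of groups overlapped at P0, but at E18.5 both did. There Sycp3 to Sycp2 was -1.15, -1.74 and -0.94 in knockouts, against -0.37, -2.28 and -0.26 in controls, and Syce2 to Sycp1 was -3.18, -3.09 and -2.66, against -3.18, -2.67 and -2.33.

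**Figure D3:**
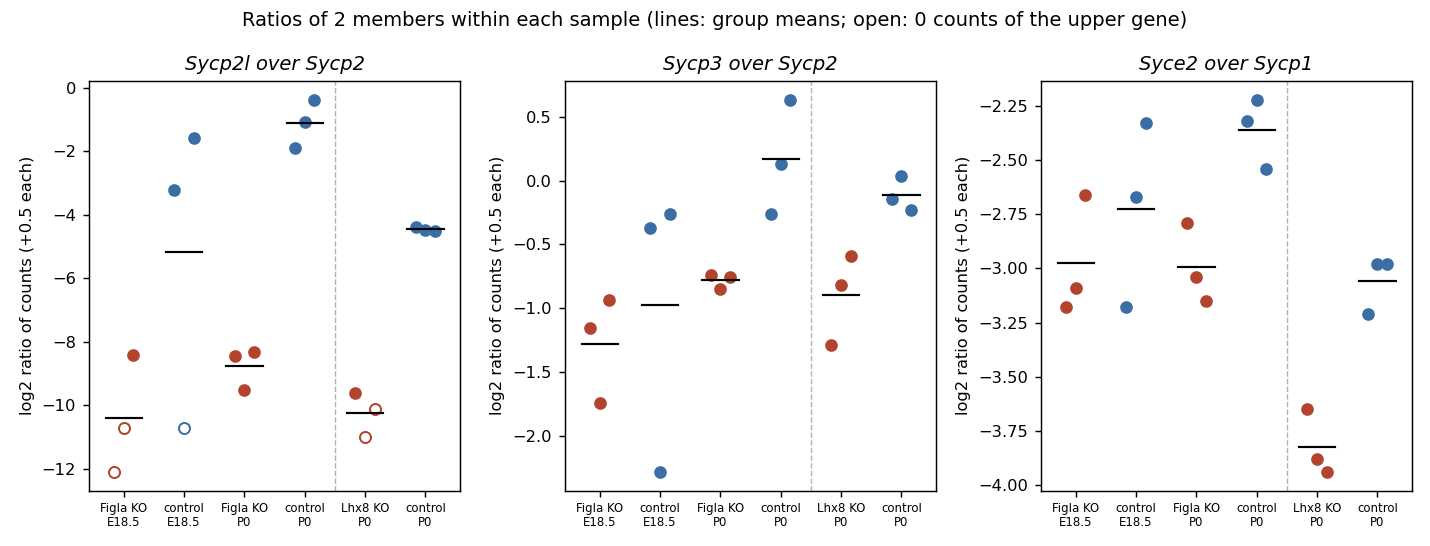
Log2 ratio of the counts of 2 members in each sample (points, 0.5 added to each count), with group means as lines; open points had 0 reads of the upper gene. Sycp2l over Sycp2 lies at -8.33 or lower in every knockout sample and at -4.52 or higher in every control but E18.5 control replicate 3, which lies at -10.7.

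Age was compared within the Figla set, in 1 model of its 12 samples. Any difference in how the E18.5 and P0 libraries were made cannot be told apart from age. Between P0 and E18.5 controls edgeR called 0 of the 8 members, and 0.0% of 18379 genes were higher and 0.0% lower. At an unadjusted p under 0.05 there were 4254 genes, 2 of them members, and DESeq2 called 1052 genes higher and 564 lower. Syce1 averaged 59.3 ± 10.2 CPM in P0 controls and 35.3 ± 5.74 in E18.5 controls (SD, n = 3 each), and its log2 fold change was 0.69 (adjusted p = 0.0616, SE 0.17, and 0.00364 by DESeq2). Syce2 averaged 60.8 ± 6.47 CPM in P0 controls and 38.0 ± 6.05 in E18.5 controls, with a log2 fold change of 0.61 (adjusted p = 0.061, SE 0.15, and 0.00261 by DESeq2). Sycp2 had a log2 fold change of -0.49 (adjusted p = 0.238, SE 0.24), and Sycp2l of 1.47 (adjusted p = 0.274, SE 0.77). In knockouts, edgeR called 0 of the 8 between P0 and E18.5, beside 0.00544% of all genes lower, which is 1 gene, and 0.0% higher, with 2319 at an unadjusted p under 0.05. Syce1 was the member with the smallest unadjusted p in knockouts, at a log2 fold change of 0.53 (adjusted p = 0.251, SE 0.17), and DESeq2 called 0 members.

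Whether the Figla effect differed between ages was tested as an interaction. None of the 8 members was called by edgeR or by DESeq2. Over all genes edgeR called 0.0%, with 977 genes at an unadjusted p under 0.05, and DESeq2 called 3 genes. Syce2 came closest, with an effect at P0 minus that at E18.5 of -0.45 on the log2 scale (unadjusted p = 0.05, adjusted p = 0.913, SE 0.21). For Sycp2l the difference was 0.50 with a 95% interval of -4.31 to 5.30, which leaves its size undetermined.

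The neighbours of the complex in meiotic prophase were taken from a list of 26 genes of the axis, synapsis, telomere attachment and recombination, of which 25 were matched by symbol. In Figla knockouts at P0, 3 of 25 were lower and 0 higher (median log2 fold change -0.20), near the 10.9% of all genes that were lower. In Lhx8 knockouts 3 of 23 tested were lower and 0 higher (median -0.09), beside 7.29% of all genes. At E18.5 0 of 24 were called by edgeR (median -0.32). Terb1, which ties telomeres to the nuclear envelope, fell in both knockouts at P0. It averaged 14.5 ± 0.60 CPM in Figla knockouts and 33.4 ± 4.32 in controls, a log2 fold change of -1.18 (adjusted p = 0.00041, SE 0.15). In Lhx8 knockouts Terb1 averaged 15.8 ± 2.41 CPM and in their controls 40.4 ± 6.05, a log2 fold change of -1.34 (adjusted p = 0.00132, SE 0.18). Fkbp6, a co-chaperone found on synaptonemal complexes, also fell in both, at -0.58 in Figla (adjusted p = 0.00394, SE 0.10) and -0.68 in Lhx8 knockouts (adjusted p = 0.0215, SE 0.16). Hormad1, an axis protein that marks unsynapsed chromosomes, fell by 0.83 in Figla knockouts (adjusted p = 0.0209, SE 0.21) and had a log2 fold change of 0.21 (adjusted p = 0.679) in Lhx8 knockouts. Meiob, a single-strand DNA binding protein of recombination, fell by 1.33 in Lhx8 knockouts (adjusted p = 0.00371, SE 0.22) and had a log2 fold change of -0.86 (adjusted p = 0.0655) in Figla knockouts.

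Germ cell markers were lower in part in both knockouts at P0. In Figla knockouts at P0, 4 of 7 germ cell markers were lower and 0 higher (median log2 fold change -0.45), beside 10.9% of all genes lower. Their summed level ran from 969 to 1000 CPM in knockouts, against 1180 to 1450 in controls, and none was at 0. The largest drop among them was that of Ddx4, a germ cell RNA helicase, at a log2 fold change of -0.84 (adjusted p = 0.000388, SE 0.10), while Dnd1 stood at 0.63 (adjusted p = 0.152). In Lhx8 knockouts 2 of 7 were lower (median -0.15), beside 7.29% of all genes. They were Ddx4 at -0.94 (adjusted p = 0.00559, SE 0.16) and the piRNA-pathway helicase Tdrd9 at -0.71 (adjusted p = 0.0179, SE 0.15). Asz1 stood at -0.18, Stk31 at -0.15, Dazl at -0.14, Mael at 0.20 and Dnd1 at 0.62, and none of these passed. The summed level there ran from 520 to 587 CPM in knockouts, against 552 to 725 in controls, so these ranges overlapped. At E18.5 0 of 7 were called (median -0.44), with sums of 519 to 725 CPM in knockouts, against 523 to 1160 in controls. In whole ovaries, fewer germ cells and less of these transcripts per germ cell cannot be told apart. The part of germ cell content in the lower levels of Sycp2l, Sycp3, Syce1 and Syce2 was not tested. Its part in the ratios of Sycp2l to Sycp2 was not tested either.

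Stromal markers moved the other way in Figla knockouts at P0, with 7 of 7 higher (median log2 fold change 0.50) and a summed level of 6380 to 7320 CPM in knockouts, against 4440 to 5590 in controls. Of the endothelial markers 4 of 6 were higher, of the pregranulosa markers 2 of 8, of the macrophage markers 1 of 5, and of the erythroid 0 of 6 and the mesonephric 0 of 2 tested. Over all genes tested in that comparison, 5.12% were higher. In Lhx8 knockouts the stromal markers were higher in 3 of 7 cases (median 0.53), with sums of 4860 to 5670 CPM in knockouts, against 3280 to 3750 in controls. There 1 of 7 pregranulosa and 1 of 2 mesonephric markers were higher, and 0 of 6 endothelial, 0 of 4 macrophage and 0 of 1 erythroid markers were called. Over all genes tested in the Lhx8 set, 3.06% were higher. At E18.5 no marker of any of these lists was called by edgeR, and erythroid markers summed to 260 to 1990 CPM in knockouts, against 200 to 376 in controls. What these shares did to the levels of the 8 genes was not tested.

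**Figure D4:**
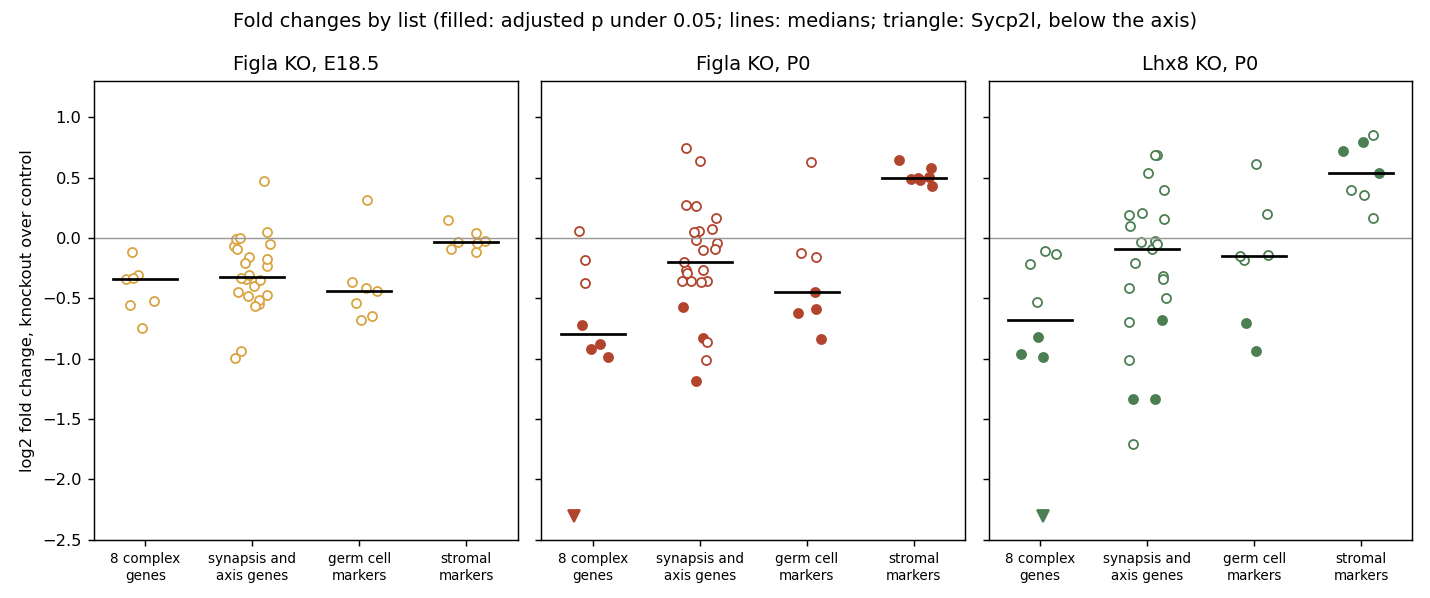
Log2 fold changes of knockout over control for the 8 complex genes, the synapsis and axis genes, the germ cell markers and the stromal markers, with medians as lines; filled points have an adjusted p under 0.05, and triangles mark Sycp2l, which lies below the axis. At P0 the median of the complex genes is -0.80 in Figla and -0.68 in Lhx8 knockouts, and the germ cell medians are -0.45 and -0.15.

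The genes most like Sycp2l and Sycp3 across the 12 Figla samples were found by the root mean square difference of centred log2 CPM, over 18378 genes. The 5 nearest to Sycp2l were Th (0.497), which encodes tyrosine hydroxylase, Trim61 (0.60), Trp63 (0.665), a p53 family member of oocytes, E330020D12Rik (0.719) and Pdzk1 (0.768), while the median gene lay at 3.40. All 5 were lower in Figla knockouts at P0, with log2 fold changes of -8.44, -8.80, -6.43, -7.47 and -6.19. Those samples also set the likeness. In the Lhx8 set, whose samples it did not use, 4 of the 5 were lower, beside 7.29% of all genes. The 5 were picked as alike to a gene near 0 in Figla knockouts, so this count gives no independent support. The log2 fold changes were -8.06 for Th (adjusted p = 1.54e-07), -5.95 for Trim61 (adjusted p = 0.000959), -4.565 for Trp63 (adjusted p = 0.000255) and -4.42 for E330020D12Rik (adjusted p = 5.24e-05), while Pdzk1 stood at -2.34 (adjusted p = 0.089).

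For Sycp3 the nearest were Phospho2 (0.118), Pcgf6 (0.139), Vti1b (0.149), Gkap1 (0.150) and Fam169a (0.161), with the median gene at 0.652. Their log2 fold changes at P0 in Figla knockouts ran from -1.005 for Phospho2 to -0.77 for Vti1b. In the Lhx8 set 2 of these 5 were lower, beside 7.29% of all genes. They were Gkap1 at -1.04 (adjusted p = 0.00573) and Fam169a at -1.51 (adjusted p = 0.0131), and the adjusted p of the other 3 ran from 0.0836 to 0.158. None of the 5 nearest to either gene was a member of the complex.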

How the data were processed

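RNA was measured in 20 libraries of whole mouse ovaries. Per the labels' protocols, the Figla libraries were made with a Nextera kit, which keeps no strand, and the Lhx8 libraries with the QuantSeq 3′ FWD kit. Trimming with cutadapt and alignment to GRCm38.p5 with HISAT2 are listed in the submitters' processing notes. The deposited tables hold unnormalized read counts for each gene, which per the file headers came from featureCounts 1.6.0 without use of strand, on the GENCODE M12 annotation. Reads that overlapped more than 1 gene or mapped to several places were not assigned.

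Low genes were removed with filterByExpr (count 10, total 15), and TMM-scaled counts were tested in edgeR 4.0.16 (R 4.3.3) with its quasi-likelihood F test, adjusted by Benjamini-Hochberg over all genes tested, at 0.05. The fits were also run on simulated data with known changes, in which samples did not vary together, and the outcome is not reported here. CPM use TMM-scaled library sizes unless given on total counts, and TPM use exonic lengths of GENCODE M12. Intervals on counts are 95%, and they and the floor of 3 counts cover counting error only. Replicate libraries within a group differed by a chi-square per degree of freedom of 6.62 to 62.3, except libraries 1 and 2 of both E18.5 groups, at 1.12 and 1.32, which were summed. The labels do not say that libraries came from separate animals, so each p reflects only how these samples vary, which may be technical.

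The 8 members and all lists were chosen with earlier results of these data known, and the lists give no independent support. All members are named. Of the neighbours, those called in a knockout comparison are named, up to 6 each, and of genes alike the nearest 5 to Sycp2l and Sycp3. The alternatives were DESeq2 1.42.0, RLE scaling, no filter, a replicate block, each sample left out, each library as its own sample, 1 model of all Figla samples, and grouping by title or by agreeing labels. One in which both E18.5 samples numbered 3 were left out was chosen after seeing the data. Promoters are from RefSeq (GRCm38.p6).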

Additional observations from a re-analysis of the deposited data

How the results depend on the processing

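Sycp2l, Syce1 and Syce2 stayed lower, with an adjusted p under 0.05, under all alternatives run with groups by library name in both knockouts at P0, and Sycp3 did in all but 1 model of all Figla samples. At P0 in the Figla set, 2767 genes were called, against 1835 with agreeing labels, 1363 in 1 model (3 members), 0 by title, and 1423 to 2882 (4 to 6 members) with a sample left out. In the Lhx8 set, 1582 genes were called, against 2682 with no filter and 630 to 1490 with a sample left out. At E18.5 1 gene was called, against 78 by DESeq2, 229 with no filter (1 member), 1082 with agreeing labels (3 members), 34 with each library as a sample, 18 without both samples numbered 3, 53 in 1 model, 1093 by title, and 0 to 89 (0 to 1 members) with a sample left out. For the interaction, DESeq2 called 3 and no filter 63. Between ages in controls, DESeq2 called 1616 (2 members), no filter 1252 (3), single libraries 1490 (2), and fits without 1 sample 0 to 556 (0 to 2). In knockouts the counts were 309, 530, 16 and 0 to 150, and 0 with RLE scaling.

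Grouping by title turned the sign of every Lhx8 difference. Under the other alternatives, signs turned only for differences that did not pass. With a sample left out, the Figla difference at P0 ran from -0.0647 to 0.294 for Sycp2 (-0.00582 with agreeing labels) and from -0.434 to 0.0618 for Syce3. At E18.5 it ran from -0.482 to 0.0347 for Sycp1 and from -0.318 to 0.109 for Sycp2. In the Lhx8 set it ran from -0.284 to 0.0564 for Sycp2 and from -0.345 to 0.403 for Tex12. The interaction ran from -0.397 to 0.121 for Sycp1 (0.0298 with single libraries), -0.0203 to 0.426 for Sycp2, -0.601 to 0.0236 for Sycp3, -0.582 to 2.42 for Sycp2l and -0.125 to 0.423 for Syce3. Between ages it ran in controls from -0.374 to 0.0289 for Syce3 and from -0.174 to 0.172 for Tex12 (-0.0156 with single libraries), and in knockouts from -0.226 to 0.179 for Syce3. The cause of these changes was not tested.

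The replicate number as a block gave 4680 genes at P0 and 28 at E18.5 in the Figla set and 931 in the Lhx8 set. The Figla numbers follow the order of deposit, and since the labels state no pairing they were not used to pair samples. Same-numbered samples correlated at 0.288 to 0.392 at P0 and 0.259 to 0.575 at E18.5, each best with its own number, which is a hint from the data, and at -0.154 to 0.0471 in the Lhx8 set. With the block, Sycp1 passed at P0 in the Figla set (-0.356, adjusted p = 0.032), which made 6 members. Sycp2l had 0 to 2 reads in each knockout sample, which limits the precision of its fold changes.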
